A study of Bos taurus with 4 samples.

Results

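DAZL, TEX12, ASZ1 and PRM1 are 4 germ cell genes that were read on the microarrays of inner cell masses (ICMs) from bovine blastocysts cultured in naïve human stem cell medium (NHSM) or in synthetic oviduct fluid (SOF). Their probes were found by gene symbol in the annotation of the array, which gave 8 of 43653 gene probes and 4 of 12545 named genes. The 4 genes were chosen by their high ratios of NHSM over SOF on these same arrays, so the ratios below describe them and are not a test.

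Germ cells are set aside early in the embryo and later build, by meiosis, the oocyte or the spermatozoon. Many of the genes they use are kept silent in other tissues by DNA methylation and by repressor complexes, and in the early mouse embryo, where DNA methylation is low, some of them are expressed. DAZL is an RNA-binding protein that controls translation in germ cells, TEX12 is a part of the central element that joins paired chromosomes in meiosis, ASZ1 is a protein of the nuage, where small piRNAs that silence transposons are made, and PRM1 is a protamine that replaces histones in the sperm head.

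Bovine embryos were made by in vitro fertilisation of slaughterhouse oocytes of mixed breeds with frozen-thawed sperm of a bull, and were cultured in SOF. After 4 days of this culture they were moved to fresh SOF or to NHSM until day 9 after fertilisation. NHSM is a KO DMEM base with serum replacement, insulin, LIF, bFGF and TGFbeta1, to which the inhibitors PD0325901 (ERK pathway), CHIR99021 (GSK3), Go6983 (PKC), SP600125 (JNK) and SB203580 (p38) were added. It differs from SOF in base, serum replacement, growth factors and inhibitors at once, so the share of each agent cannot be told apart. ICMs were cut out with needles, which leaves some trophectoderm cells, and RNA of pools of 11 to 24 ICMs was amplified and hybridised on 4 arrays with 2 dyes, each with 1 NHSM pool and the SOF pool of the same number. The NHSM pool carried Cy3 on arrays 1 and 3 and Cy5 on arrays 2 and 4. Each pool was read with 1 dye only. A difference between the 2 orientations can therefore come from the dye or from the pools, which cannot be told apart. The main fit takes out a mean dye effect for each probe, so its p-values do not measure the whole spread between these 4 pairs of pools. They measure the spread between arrays of the same dye orientation, drawn towards a variance shared by all probes.

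A signal is the mean intensity of a spot in scanner units, with saturation at 65527. The median signal of an array channel was 122 to 143. The spots of the 2 most repeated control probes gave a floor for each channel, taken as their 95th percentile, which came to 83.5 to 125 in Cy5 and 113 to 140 in Cy3. A ratio is the log2 of NHSM over SOF on 1 array after loess normalisation, so that a value above 0 means more in NHSM. Ratios of all gene probes correlated between pairs of arrays with Pearson's r of 0.0608 to 0.586, across probes, which are not independent replicates. In the limma fit with a dye term, 370 probes (0.848%) were higher in NHSM and 394 (0.903%) lower at an adjusted p under 0.05 and at least 1.5-fold, together 1.75% of all gene probes. When each array was instead centred on its median, 563 were higher and 300 lower.

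Of the 8 probes, 6 had scanner signals in all 4 NHSM pools above those in all 4 SOF pools, against 1.88% of all gene probes. Ratios were above 0 on all 4 arrays for 7 of the 8, against 11.0% of all gene probes. At an adjusted p under 0.05 and at least 1.5-fold all 4 genes lay in the set called higher in NHSM, which held 1.23% of all genes, and nothing is read from this because the same ratios chose them. Because whole pools were measured, more cells that express a gene and more RNA of it in each cell cannot be told apart.

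DAZL, which binds messenger RNAs of germ cells and is needed in mouse for germ cells to enter meiosis, had the highest ratio of the 12545 named genes, each read by its brightest probe. Among all 43653 gene probes, of which 15701 have no gene name here, 2 were higher. Its brighter probe, BTAA014868, gave signals of 879, 1662, 1827 and 2087 in NHSM pools 1 to 4. The SOF pools 1 to 4 gave 371, 445, 460 and 417. Every NHSM pool thus lay above every SOF pool, with pool 1 the lowest in both media, and all 8 pools lay above the floor. The ratios were 1.59, 1.72, 1.90 and 1.75, with a mean of 1.74 ± 0.127 (SD, n = 4), which is 3.34-fold, and a standard error of 0.0756 in the fit. The ratio hardly differed between the dye orientations, with a mean of 1.75 with NHSM in Cy3 and 1.74 with NHSM in Cy5.

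The second DAZL probe, BTAA026527, did not follow the first. Its signals were 72.1, 69.3, 84.0 and 68.9 in the NHSM pools and 66.0, 76.6, 64.4 and 76.6 in the SOF pools, so the media overlapped and no pool reached the floor. The ratios of -0.33, 0.32, 0.01 and 0.18 had a mean of 0.04 ± 0.283 (SD, n = 4). The statement on DAZL therefore rests on 1 probe, and averaging both probes gave a ratio of 0.89. Which part of the transcript each probe matches was not analysed here.

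TEX12, which with SYCE2 forms the filaments of the synaptonemal complex between paired chromosomes, ranked at place 20 of the named genes. It has 1 probe, BTAA010691, with signals of 1563, 1696, 2383 and 1804 in the NHSM pools. The SOF pools gave 635, 954, 728 and 777, so the media did not overlap and every pool was above the floor. The ratios of 1.70, 0.60, 1.64 and 0.62 fell into 2 pairs by dye, with a mean of 1.67 on the arrays with NHSM in Cy3 and of 0.61 on those with NHSM in Cy5. The overall mean was 1.14 ± 0.610 (SD, n = 4), or 2.20-fold, and the standard error after the dye term was 0.0643.

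The wide SD of TEX12 thus followed the dye orientation, and with it the pools: the ratios within an orientation differed by 0.0641 and 0.0142. A fitted dye effect of this size or more was found in 1.96% of gene probes. The table of log2 ratios that the authors deposited, from which the dye bias of each probe had been taken out, held 1.16, 1.01, 0.99 and 1.09 for this probe, with a mean of 1.06 ± 0.0768 (SD, n = 4). TEX12 was higher in NHSM with either dye, by 3.18-fold in Cy3 and 1.53-fold in Cy5.

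ASZ1, which in mouse holds the nuage of germ cells together and is needed to silence transposons, ranked at place 76. Its brighter probe, BTAA026861, gave signals of 512, 768, 991 and 908 in the NHSM pools. The SOF pools gave 284, 545, 421 and 480. The media overlapped here, because NHSM pool 1 lay below SOF pool 2, although NHSM was above SOF within each array. The ratios of 1.15, 0.34, 1.14 and 0.39 had a mean of 0.75 ± 0.452 (SD, n = 4), or 1.69-fold, with a standard error of 0.0640.

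The second ASZ1 probe, BTAA000833, gave nearly the same ratios of 1.06, 0.44, 1.01 and 0.43, with a mean of 0.74 ± 0.345 (SD, n = 4). Its signals were 538, 653, 964 and 965 in the NHSM pools and 321, 437, 448 and 492 in the SOF pools, with no overlap. Both probes shared the split by dye orientation seen for TEX12. The mean ratio was 1.15 with NHSM in Cy3 against 0.36 in Cy5 for the first probe, and 1.03 against 0.44 for the second. A fitted dye effect at least as large as that of the first probe was found in 3.08% of gene probes.

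PRM1, the protamine of the sperm head, ranked at place 35 and lay near the floor in SOF. Its brightest probe, BTAA019684, gave signals of 196, 268, 201 and 266 in the NHSM pools, all above the floor. The SOF pools gave 101, 127, 108 and 115, of which 2 were above the floor. The ratios of 0.98, 1.10, 0.76 and 0.95 had a mean of 0.95 ± 0.141 (SD, n = 4), or 1.93-fold, with a standard error of 0.0729. The media did not overlap. Since 2 SOF pools were under the floor, this fold and the rank compare measured signals near the limit of detection and do not give an exact size.

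The other PRM1 probes gave the same direction on every array. Probe BTAA014768 had ratios of 0.79, 1.05, 0.79 and 0.99, with a mean of 0.91 ± 0.135 (SD, n = 4). Probe BTAA006653 had ratios of 0.73, 0.55, 0.81 and 0.97, with a mean of 0.76 ± 0.173 (SD, n = 4). Signals of these 2 probes ran from 167 to 249 in the NHSM pools and from 90.5 to 128 in the SOF pools, with 1 SOF pool above the floor for each. With the floor at the 99th percentile of the control spots, 2 NHSM pools and 0 SOF pools were above it for each of the 3 probes. PRM1 thus lay close to the limit of detection in SOF and in part of the NHSM pools. Local backgrounds around the 8 probes were 50 to 84.

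**Figure D1:**
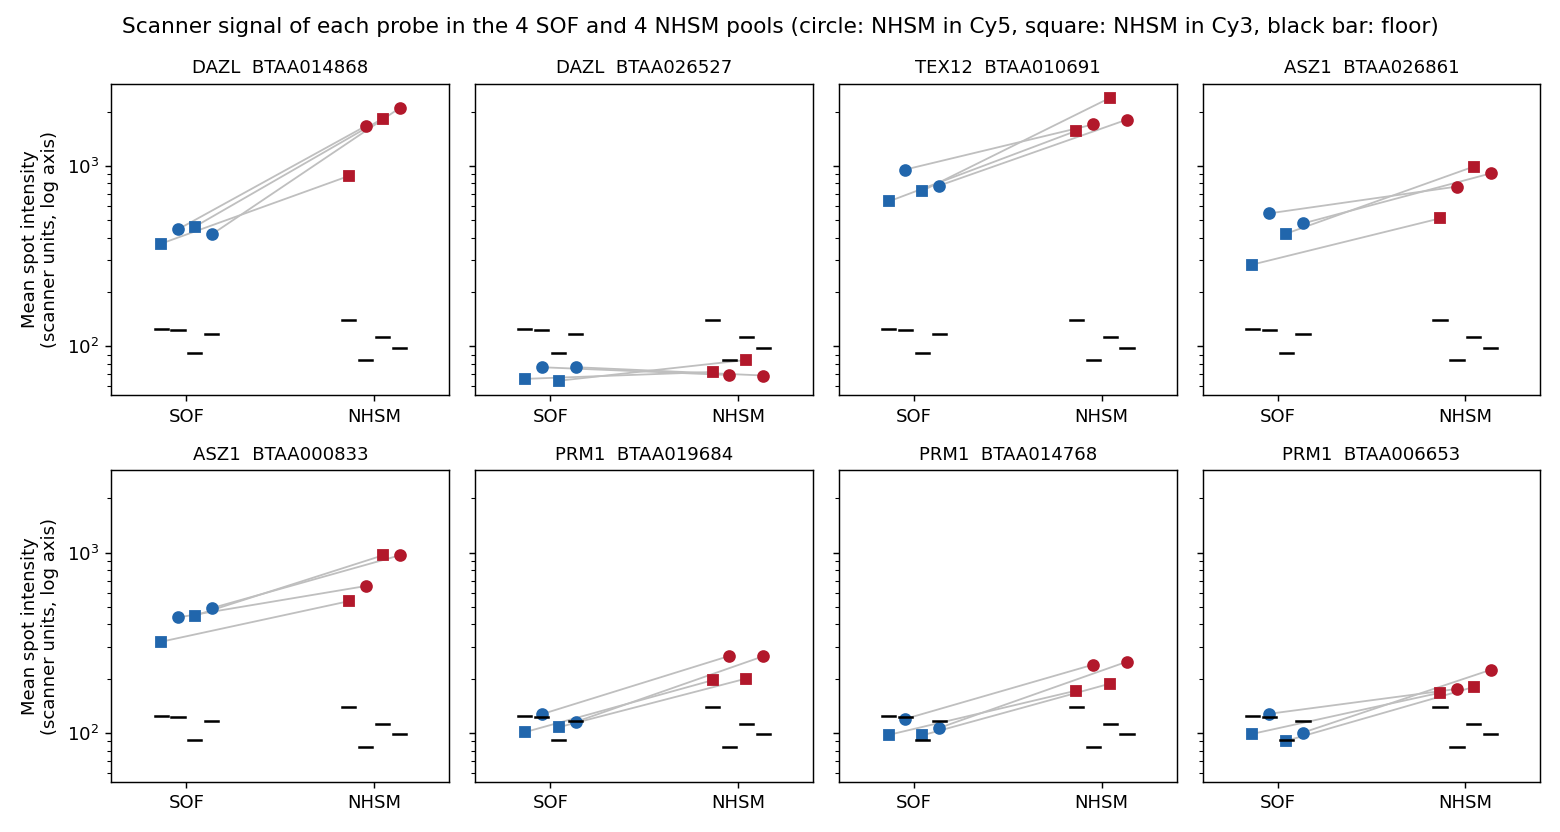
Mean spot intensity in scanner units (log axis) of each of the 8 probes in the 4 SOF and 4 NHSM pools, with grey lines joining the pools of 1 array and black bars for the floor of each channel. DAZL probe BTAA014868 lay at 371 to 460 in SOF and at 879 to 2087 in NHSM, while DAZL probe BTAA026527 lay under the floor in all 8 pools and the PRM1 probes lay close to it in SOF.

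Among the 4 genes, the order of the mean ratios was DAZL, TEX12, PRM1 and ASZ1. DAZL lay above PRM1 and ASZ1 on every array. It did not lie above TEX12 on every array, since TEX12 had the higher ratio on array 1, with 1.70 against 1.59. TEX12 exceeded ASZ1 on all 4 arrays, by 0.55, 0.26, 0.49 and 0.23, with a mean of 0.38 ± 0.161 (SD, n = 4) on the log2 scale. PRM1 exceeded TEX12 and ASZ1 on arrays 2 and 4 but not on arrays 1 and 3.

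**Figure D2:**
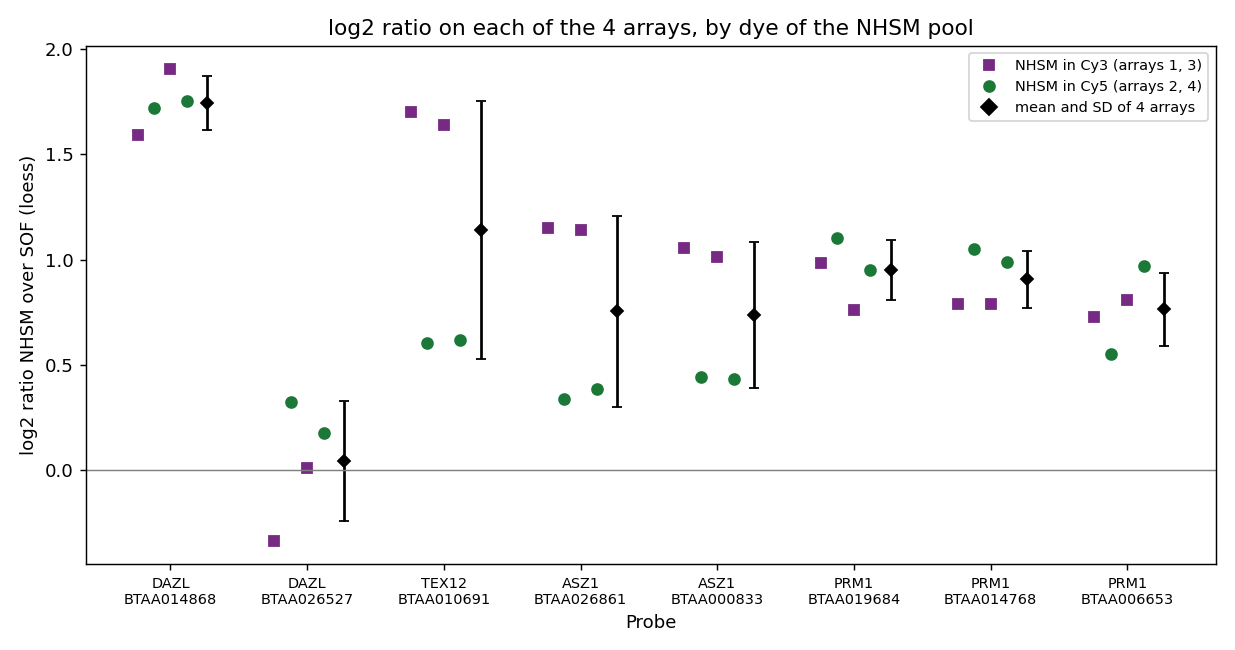
The log2 ratio of NHSM over SOF on each of the 4 arrays for the 8 probes, with squares for NHSM in Cy3, circles for NHSM in Cy5, and diamonds with bars for the mean and SD of 4 arrays. TEX12 and ASZ1 split by dye (1.67 against 0.61 for TEX12), whereas the brighter DAZL probe did not (1.75 against 1.74).

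For each gene, the 3 named genes with the most similar ratios over the 4 arrays were sought among 7949 genes above the floor in all NHSM pools, by the root mean square difference. For DAZL these were ACTA1, the skeletal muscle actin, at 0.172, STC1, a secreted glycoprotein hormone, at 0.247, and XDH, the xanthine dehydrogenase, at 0.280. For TEX12 they were EXOC3L4 at 0.280, GCA at 0.282 and S100B, a calcium-binding protein, at 0.291, which all had higher ratios with NHSM in Cy3. For ASZ1 they were ABCE1, a ribosome recycling factor, at 0.131, LYSMD2 at 0.153 and CYCS, cytochrome c, at 0.156. For PRM1 they were TFRC, the transferrin receptor, at 0.0550, HBA, an alpha globin, at 0.0650, and PSPH, an enzyme of serine synthesis, at 0.130. None of these 12 genes is in the germ cell lists, and with 4 arrays the measure mostly picks genes with a ratio of like size.

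Genes with related roles were then read in the same fit, with p-values adjusted over all 12545 genes and the brightest probe for each gene. Of 99 other measured genes in 4 germ cell lists, 4 rose in NHSM, 4 fell and 91 did not pass, and 25 were under the floor in all 8 pools. The median ratio of these 99 was 0.00, beside -0.02 over all genes, of which 6.87% rose and 6.91% fell. The high ratios of DAZL, TEX12, ASZ1 and PRM1 were thus not seen across the lists they belong to.

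For DAZL, the list on germ cell specification and RNA control held 18 other measured genes, of which 0 rose at an adjusted p under 0.05 in limma (1 at an unadjusted p under 0.05) and 3 fell, with a median of -0.06. ALPL, an alkaline phosphatase long used to stain early germ cells, fell by 0.79 (SE 0.0792, adjusted p = 0.00144), with ratios of -0.81, -0.95, -0.45 and -0.96. PRDM14, a regulator of primordial germ cells that the epiblast also expresses, fell by 0.32 (adjusted p = 0.0222). DAZAP2, first found as a protein that binds DAZ proteins but present in many tissues, fell by 0.31 (adjusted p = 0.0329). PRDM14 and DAZAP2 no longer passed with median centring, with adjusted p of 0.142 and 0.119, or without replicate 2, with 0.127 and 0.123, or without replicate 4, with 0.0977 and 0.150. PRDM14 was also lost without replicate 1 (0.0502) and DAZAP2 without replicate 3 (0.0968) and without the dye in the fit (0.0539). The other DAZAP2 probe, above the floor in all 8 pools, had 0.12, and the mean of both probes was -0.10 (adjusted p = 0.331). NANOS3, an RNA-binding protein of primordial germ cells, had a ratio of -0.03 (adjusted p = 0.842), and its signals overlapped at 993 to 1813 in NHSM and 1133 to 1528 in SOF. DDX4 and BOLL were not analysed here.

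For ASZ1, the list on piRNA and nuage held 25 other measured genes, of which 2 rose, 1 fell and 22 did not pass, with a median of 0.02. GTSF1, a cofactor of PIWI proteins in transposon silencing, rose by 0.57 (SE 0.0697, adjusted p = 0.00291). Its ratios of 0.52, 0.53, 0.73 and 0.49 showed no split by dye, and its signals were 283 to 488 in NHSM and 232 to 299 in SOF. TDRD1, a Tudor protein of the nuage, rose by 0.40 (adjusted p = 0.0123), but it was above the floor in 3 NHSM pools and in 0 SOF pools, and without replicate 2 it did not pass (adjusted p = 0.0890).

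DDX25, a helicase of haploid male germ cells, fell by 0.49 (adjusted p = 0.00489), with signals of 134 to 176 in NHSM and 160 to 246 in SOF. PIWIL2, which binds piRNAs, had a ratio of 0.25 that did not pass (adjusted p = 0.118) with loess and passed with median centring (adjusted p = 0.0394). MAEL was not analysed here.

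For TEX12, the list on meiosis and the synaptonemal complex held 21 other measured genes, of which 1 rose and 0 fell at an adjusted p under 0.05 in limma (1 fell at an unadjusted p under 0.05), with a median of -0.01. That gene was SYCP3, a protein of the chromosome axes, with signals of 1450, 2810, 4375 and 3010 in the NHSM pools. The SOF pools gave 1317, 2097, 1829 and 1410, so the media overlapped. Its ratios of 0.57, 0.12, 1.24 and 0.43 gave 0.59 (SE 0.116, adjusted p = 0.0152), and the call was lost when the dye was left out of the fit (adjusted p = 0.0866) or without replicate 4 (adjusted p = 0.0561). SYCE2, the direct partner of TEX12, had a ratio of -0.06 (adjusted p = 0.790). SYCE1 had -0.11, SYCE3 0.03 and SYCP1 0.00, and the signals of these 4 genes were 60.0 to 138, around or under the floor, where a difference may not be detectable.

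For PRM1, the spermatid list held 35 other measured genes, of which 1 rose, 0 fell in limma (2 at an unadjusted p under 0.05) and 34 did not pass, with a median of 0.02. CRISP2, a protein of the acrosome and the sperm tail, rose by 0.82 (SE 0.0841, adjusted p = 0.00152), with signals of 241 to 395 in NHSM and 170 to 200 in SOF and no overlap. Its second probe rose by 0.38 (adjusted p over all probes = 0.0289). The other protamine probes lay flat or at their limits. PRM2 had a ratio of -0.09 (adjusted p = 0.674) and was above the floor in 2 NHSM and 1 SOF pools. PRM3 had 0.03 with its brighter probe, which was saturated in 2 NHSM pools and 1 SOF pool, and 0.01 (SE 0.0690) with its dimmer probe, BTAA015221, which had signals of 118 to 158 and was above the floor in 3 NHSM and 3 SOF pools.

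The transition proteins, which come before protamines on sperm DNA, depended on the probe. The brightest TNP1 probe, BTAA025071, had ratios of -0.99, 0.99, -1.03 and 0.72, which followed the dye, and a fitted value of -0.08 (adjusted p = 0.612). The dimmer TNP1 probe BTAA000467 had 0.53, 1.06, 0.88 and 0.67, and rose by 0.78 (SE 0.0934, adjusted p over all probes = 0.00387), from 117 to 126 in SOF to 173 to 252 in NHSM. Another TNP1 probe, BTAA029591, was under the floor in all pools. TNP2 had -0.03 (adjusted p = 0.867) with its brightest probe and 0.43 (adjusted p over all probes = 0.203) with the next. Counting a gene by any of its probes, 3 of the 35 spermatid genes rose (CRISP2, TNP1 and SPAG6), beside 8.15% of all genes, and 6 of the 99 genes of the 4 lists.

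**Figure D3:**
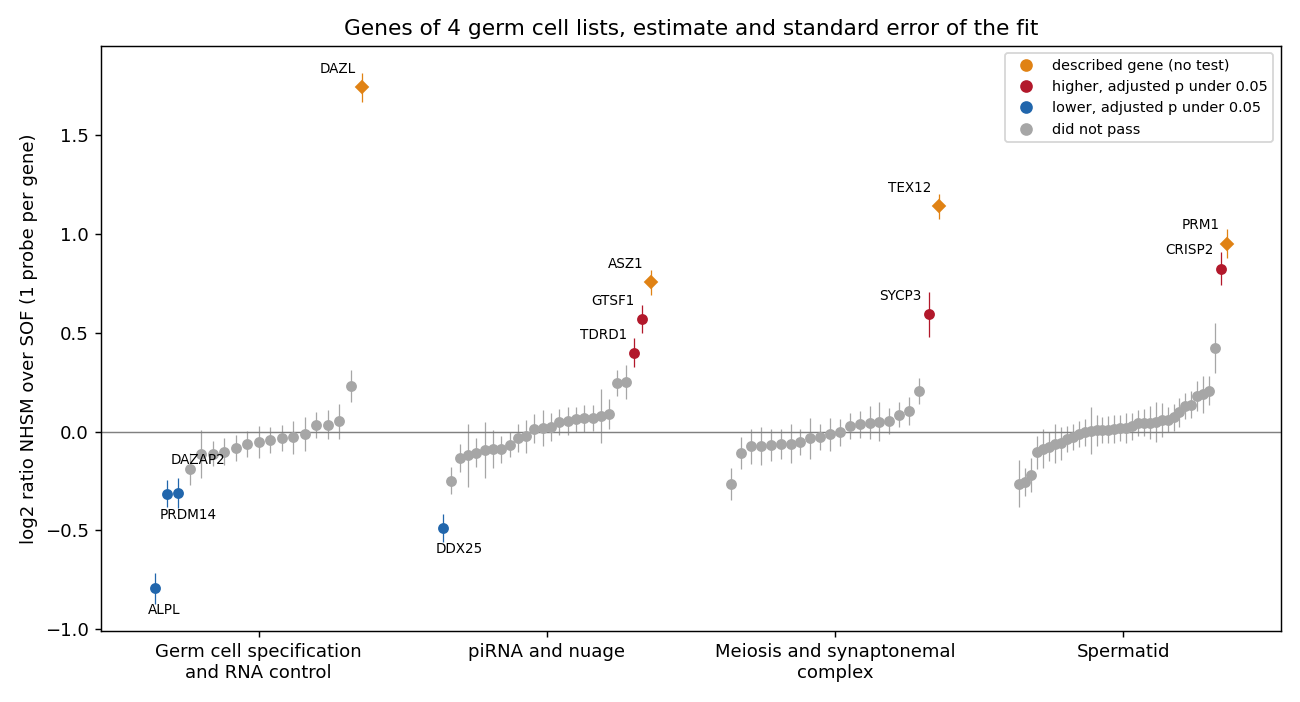
Fitted log2 ratio of NHSM over SOF with its standard error for the genes of 4 germ cell lists, 1 point per gene, ordered by value within each list. DAZL, TEX12, ASZ1 and PRM1 are the highest of their lists, next to GTSF1, TDRD1, SYCP3 and CRISP2, which passed, while 91 of the 99 other genes did not pass.

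A list on the silencing of germ cell genes was read beside them. It also holds TET1, TET2, TET3 and TDG, which act in the removal of DNA methylation, so its counts do not describe repressors alone. Of 34 measured, 2 rose, 1 fell and 31 did not pass, with a median of -0.04. HELLS, a chromatin remodeller needed for DNA methylation, fell by 0.48 (adjusted p = 0.00874), and with median centring did not pass (adjusted p = 0.0549). RYBP, a part of a Polycomb complex, rose by 0.37 (adjusted p = 0.0369), and KDM1A, a histone demethylase, rose by 0.33 (adjusted p = 0.0161). Neither passed without replicate 2, with adjusted p of 0.0897 for RYBP and 0.105 for KDM1A, or without replicate 4, with 0.147 and 0.0749, and RYBP did not pass without replicate 1 (0.0736). Without the dye term RYBP (0.0732) and KDM1A (0.0775) did not pass. With the mean of its probes KDM1A had 0.19 (0.0511).

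The DNA methyltransferases and the complex of E2F6, MGA and PCGF6 did not pass with loess ratios. DNMT1, which maintains DNA methylation, had 0.09 and its partner UHRF1 0.07. DNMT3A, which sets new methylation, had -0.26 (adjusted p = 0.0945), and E2F6 had -0.19 (adjusted p = 0.0951). Both passed as lower with separate channels (0.0450 and 0.0234), and DNMT3A passed without replicate 1, at -0.38 (0.0107). The other DNMT3A probe had 0.07 (adjusted p over all probes = 0.763), and the next E2F6 probe had 0.10 (0.651). Both of these probes were above the floor in 4 NHSM and 4 SOF pools. PCGF6 had -0.06 and MGA -0.03. DNMT3B was not analysed here.

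Other cells that the dissected ICMs can hold were read from marker lists. Over all genes, 6.87% rose and 6.91% fell, which stand beside the counts of these small lists. A summed signal follows the brightest genes of its list more than the others. Of 7 measured trophectoderm markers 2 fell, and their summed signal was 23327 to 26849 in NHSM and 25944 to 32935 in SOF. TFAP2A, a transcription factor of this layer, fell by 0.46. Its other probe, above the floor in all 8 pools, had -0.08 (adjusted p over all probes = 0.712). GATA2, another such factor, fell by 0.35, a call lost without replicate 2 (adjusted p = 0.146) and with median centring (0.110). The GATA2 call was also lost with a variance trend (0.0715) and with the mean of its probes, at -0.16 (0.106). PAG2, a glycoprotein of the trophoblast, had 0.39 (0.0806) with its brightest probe, and of its 8 probes, with ratios of 0.17 to 0.45, 3 rose at an adjusted p under 0.05 over all probes. PAG genes are a large family of near copies, which these probes may not tell apart. IFNT, another trophectoderm gene of the list, was not among the measured markers. The paper reports interferon-tau as lower in NHSM on these arrays. Of 7 hypoblast markers 2 fell, with sums of 5571 to 7658 in NHSM and 8714 to 10133 in SOF. These were SPARC, a matrix protein, which fell by 0.58, and GATA6, a transcription factor, which fell by 0.44 and did not pass with median centring (adjusted p = 0.0580). The other GATA6 probe had -0.06 (adjusted p over all probes = 0.853). The hypoblast sums came mostly from SPARC, with mean scanner signals of 5061 in NHSM and 6745 in SOF. The 5 hypoblast markers that did not pass had ratios of -0.11 to 0.05. Of 6 epiblast markers 3 fell, with sums of 6043 to 9491 and 7197 to 10722. SOX2 and NANOG, which mark the epiblast, were above the floor in all 8 pools, and fell by 0.32 and 0.31 (adjusted p = 0.0230 and 0.0243), calls that were lost with median centring (0.110 and 0.208), without replicate 2 (0.104 and 0.167) and without replicate 4 (0.123 and 0.0702), and for SOX2 without replicate 3 (0.0612). Both calls were also lost without the dye term (0.0830 for SOX2 and 0.134 for NANOG). The mean of the probes was -0.19 for SOX2 (0.0597) and -0.09 for NANOG (0.370). LIN28B was under the floor in all pools.

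Germ line and follicle markers were read the same way, beside the same shares of all genes. Of 11 markers of cumulus cells 2 rose and 2 fell, with sums of 53873 to 65659 in NHSM and 48718 to 93618 in SOF. These sums came mostly from AMH and STAR. Their mean scanner signals were 27514 and 30337 in NHSM and 34637 and 35070 in SOF. HSD3B1, a steroid enzyme, rose by 0.88, and FSHR, the receptor of follicle-stimulating hormone, rose by 0.44 but did not pass without replicate 2 (adjusted p = 0.0663). The next HSD3B1 probe, above the floor in all 8 pools, had 0.07 (adjusted p over all probes = 0.753). The dimmer FSHR probes, also above the floor in all 8 pools, had 0.15 (0.368) and 0.19 (0.282). FST, the activin inhibitor follistatin, fell by 0.51, a call that the fit without replicate 2 did not make (adjusted p = 0.0733), nor that with the mean of its probes, at -0.31 (0.0590). Without the dye term FST did not pass either (0.0677). AMH fell by 0.32 with ratios of -0.94, 0.24, -1.11 and 0.55 that followed the dye, and did not pass without replicate 2 (0.237), 3 (0.0767) or 4 (0.0506). On the deposited dye-corrected ratios AMH had -0.14 (0.293), and with the mean of its probes -0.04 (0.734). Without the dye term AMH did not pass (0.694). Of the 11 cumulus markers, 7 were above the floor in all NHSM pools and 8 in all SOF pools, and 0 were under it in all 8 pools. Among them LHCGR was above the floor in 1 SOF pool and in 0 NHSM pools. Counting a gene by any of its probes, 3 of the 11 rose and 1 fell. Of 22 oocyte genes 1 rose and 1 fell. TLE6, a part of the maternal complex under the oocyte surface, fell by 0.39 and did not pass without replicate 4 (adjusted p = 0.0908) or with the mean of its probes, at -0.08 (0.456). UCHL1, a ubiquitin hydrolase that neurons also hold, rose by 0.98 (adjusted p = 4.94e-04), with signals of 2526 to 5091 in NHSM and 1244 to 2144 in SOF, and with it the summed oocyte signal was 6437 to 8627 in NHSM and 5281 to 6054 in SOF. Of the 22 oocyte genes, 7 were above the floor in all 8 pools, ZP3 of the zona pellucida among them at 0.16, 9 in some pools and 6 in no pool, among them GDF9 and FIGLA. BMP15, a growth factor of the oocyte, was above it in 1 SOF pool. Sums of the spermatid list were 83238 to 104695 in NHSM and 93224 to 110652 in SOF, with the partly saturated PRM3 probe included. The part of any of these cells in the ratios of DAZL, TEX12, ASZ1 and PRM1 was not tested.

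The 4 genes lie on different chromosomes, DAZL on 1, TEX12 on 15, ASZ1 on 4 and PRM1 on 25 in the RefSeq annotation of ARS-UCD2.0. The 3 nearest measured genes on each side were read to see whether neighbours moved as well. Of these 24 genes 3 rose, 0 fell at an adjusted p under 0.05 in limma (3 at an unadjusted p under 0.05), and 21 did not pass, with a median of -0.02. Over all genes, 6.87% rose and 6.91% fell at that adjusted p. On the deposited ratios SDHD (adjusted p = 0.0342), CTTNBP2 (0.0499) and ZC3H7A (0.0374) passed as lower, and CTTNBP2 and ZC3H7A also passed with separate channels and when probes under the floor were left out. In the main fit the other SDHD probe had 0.11 (adjusted p over all probes = 0.591). The next ZC3H7A probe had 0.07 (0.838), and the other CTTNBP2 probe had -0.12 (0.524). None of the 6 neighbours of DAZL passed, also at an unadjusted p, with ratios from -0.15 (PLCL2) to 0.04 (DPH3). None of the 6 neighbours of PRM1 passed (1 at an unadjusted p under 0.05), with PRM3, PRM2 and TNP2, its partners in the protamine cluster, at 0.03, -0.09 and -0.03, and ZC3H7A at -0.24 (adjusted p = 0.0503).

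Beside TEX12, PLET1, a surface protein known from placenta and epithelial progenitors, rose by 1.36 (SE 0.117, adjusted p = 8.39e-04). Its signals were 212, 420, 652 and 678 in the NHSM pools and 102, 186, 177 and 184 in the SOF pools, with no overlap. PTS, an enzyme of tetrahydrobiopterin synthesis that lies between them, rose by 0.35 (adjusted p = 0.0132), but did not pass without replicate 2 (0.0567) or without replicate 4 (0.0937). IL18, SDHD and TIMM8B on the other side had 0.15, -0.27 and 0.17 and did not pass. Near ASZ1, CAPZA2, a capping protein of actin, rose by 0.32 (adjusted p = 0.0178), and did not pass without replicate 2 (0.0985) or without replicate 4 (0.0978). WNT2 and ST7, which lie between them, had 0.01 each, and CFTR, CTTNBP2 and STARD3NL had -0.19, -0.26 and -0.06.

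**Figure D4:**
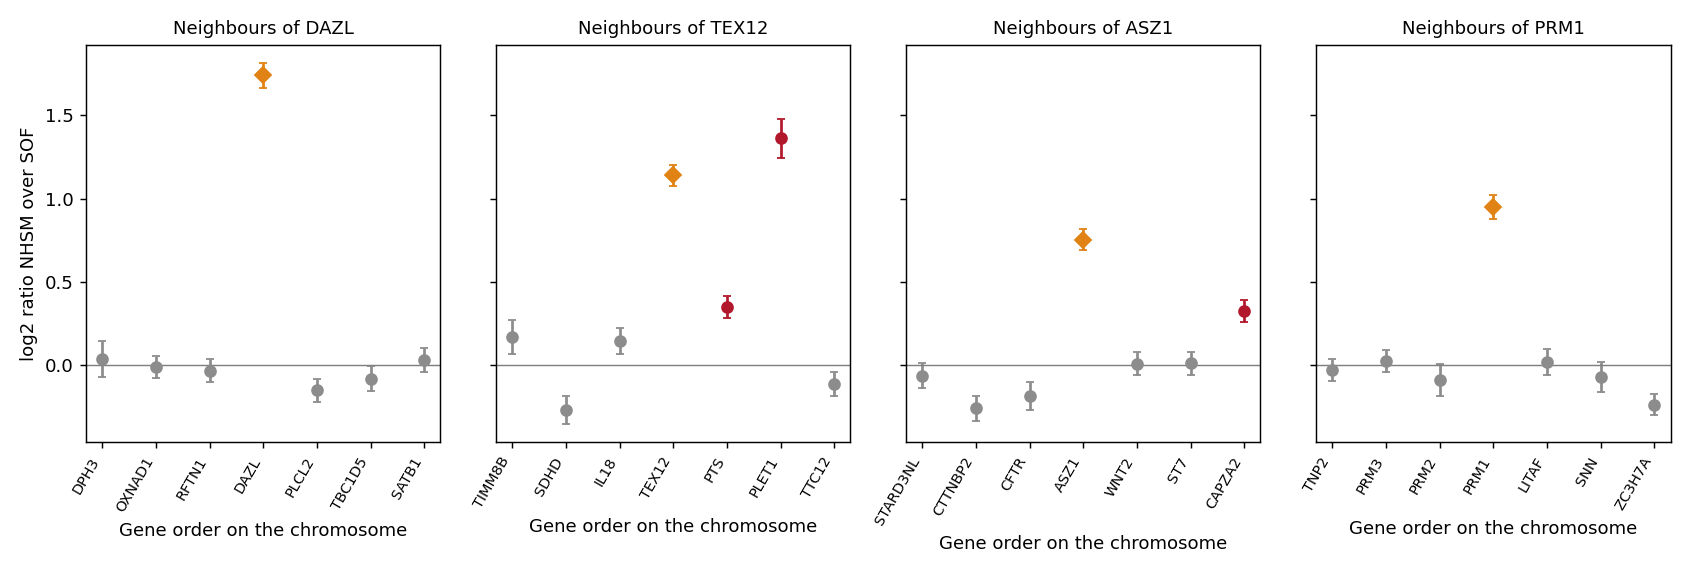
Fitted log2 ratio of NHSM over SOF with its standard error for DAZL, TEX12, ASZ1 and PRM1 (orange diamonds) and the 3 nearest measured genes on each side, in gene order, with red for an adjusted p under 0.05. Of 24 neighbours, PLET1 (1.36), PTS (0.35) and CAPZA2 (0.32) rose, and those of DAZL and PRM1 did not pass in this fit.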

How the data were processed

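RNA of 4 NHSM and 4 SOF pools was compared on 4 Agilent bovine V2 arrays. The deposited scanner files hold linear spot intensity values, not normalized, for 45220 spots, of which 1567 are controls. The log2 ratios that the authors deposited were made by loess and a correction of gene-specific dye bias, and were used as an alternative. Channel 1 was read as Cy5.

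Mean intensities were normalised by loess within arrays with no background correction, and fitted with limma 3.58.1 in R 4.3.3, with terms for the dye and for NHSM against SOF (2 residual and 5.33 prior degrees of freedom). The ratio of an array pairs the pools of 1 number. The study's MAANOVA test was not run. P-values were Benjamini-Hochberg adjusted over 43653 probes or 12545 genes, and the fit was tested on simulated data. The probe with the highest mean log2 intensity stood for a gene. Of 27952 named probes, 25823 had a current RefSeq symbol, 1831 were matched by synonym and 298 kept the name of the array. The number of arrays limits the precision.

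Genes named were all probes of the 4 genes, up to 4 genes passing in each direction from each list, fixed partners, neighbours, and the 3 most similar genes. GDF9, FIGLA, BMP15, ZP3, PAG2, SPAG6, LIN28B, LHCGR and STAR were named after their values were seen. The 4 genes and the lists were chosen with earlier results of these data known. Alternatives were median centring, normexp (offset 50), no dye term, separate channels, variance trend, array weights, the deposited ratios, probes above the floor only, mean of all probes, a floor at the 99th percentile, and leaving out each replicate.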

Additional observations from a re-analysis of the deposited data

Results flagged for a closer look

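Of 96 groups of 4 array ratios or 4 pool signals, 4 held 1 array far from the other 3 by Dixon's test. Chance gives such a gap in about 1 in 20 groups. None of the 8 probes of DAZL, TEX12, ASZ1 and PRM1 was among them. PRM2 had a ratio of -0.54 on array 3, against 0.03 to 0.10 on the others, with signals of 221 in NHSM and 300.2 in SOF on that array. FST had -1.04 on array 1, against -0.37 to -0.27. TTC12, which was under the floor in all pools, had 0.047 on array 1, against -0.18 to -0.15. CAPZA2 had 0.42 on array 1, against 0.29 on each of the others.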

How the results depend on the processing

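The ratios of DAZL, TEX12, ASZ1 and PRM1 were above 0 under every alternative run. The averaged probes moved DAZL to 0.89, as the second probe was under the floor. Leaving out 1 replicate gave 1.66 to 1.82 for DAZL, 1.12 to 1.16 for TEX12, 0.74 to 0.77 for ASZ1 and 0.89 to 1.01 for PRM1. Means by dye orientation were chosen after seeing the data. Median centring called 563 probes higher, against 370. Of the 99 other genes of the 4 germ cell lists, 4 rose, against 8 with separate channels and 3 to 8 on leaving out 1 replicate (8 without replicate 1). The 4 that fell became 2 with median centring and 2 to 8 on leaving out 1 replicate (8 without replicate 1, 2 without replicate 2 and without replicate 4). Of 65 genes in the silencing and cell type lists, 4 rose, against 2 without the dye term, 7 with separate channels and 2 to 5 on leaving out 1 replicate (2 without replicate 2 and without replicate 4). The 10 that fell became 3 with median centring, 6 without the dye term, 5 with the averaged probes and 5 to 11 on leaving out 1 replicate (5 without replicate 2, 6 without replicate 4). The cause was not tested. GTSF1, CRISP2, ALPL, DDX25, UCHL1 and PLET1 passed under every alternative. Signals near the floor limit what can be said of PRM1, in SOF and in part of the NHSM pools, of TDRD1 and of the partners of TEX12.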
